A study of Rattus norvegicus with 4 samples.

Results

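Genes of cholesterol and fatty acid synthesis were examined in cultures of L6, a myoblast line from rat skeletal muscle of Wistar background. The list named 35 genes: enzymes of sterol synthesis, regulators and carriers of sterol, and enzymes of fatty acid synthesis. Each gene was represented by the average of those probe sets whose only symbol was its own, and 33 of the 35 members were found this way among 14217 genes. Hmgcs1 and Npc1 were not analysed here. The 33 genes had 58 probe sets, with more than 1 for 19 genes and 1 for 14 genes. They comprised 17 of 18 sterol synthesis enzymes, 9 of 10 regulators and carriers, and 7 of 7 fatty acid synthesis genes.

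RNA came from 4 conditions with 1 Affymetrix rat genome array each. L6-HGF cells were grown as a sheet and as a monolayer, and L6-WT cells were likewise grown as a sheet and as a monolayer. L6-HGF cells carry human hgf, delivered with the pBabepuro retroviral vector and followed by puromycin selection, and hepatocyte growth factor (HGF) is a secreted protein that signals through the receptor Met. The wild-type line was L6-WT, and an empty-vector line was not among the arrays, so that an L6-HGF difference cannot be told apart from vector and selection. Sheets were made on thermoreactive dishes, from which cells lift as a layer on cooling, so that a sheet difference cannot be told apart from dish and handling. The human transgene was not checked here.

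Cells make cholesterol from acetyl-CoA through mevalonate, isoprenoid units, squalene and lanosterol. The membrane-bound factors SREBP-1 and SREBP-2, encoded by Srebf1 and Srebf2, are held in the endoplasmic reticulum by Scap and the Insig proteins when sterol is plentiful. When sterol is scarce they are carried to the Golgi apparatus and cleaved, and the released part activates genes of sterol and fatty acid synthesis. Export carriers such as Abca1 are activated instead by oxysterol-sensing LXR receptors.

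All values are log2 deviations from the median of the same probe set over the 4 arrays, so they show differences between arrays and no signal level. A dim probe set could not be told apart from a bright one. For a gene with 1 probe set the middle pair of arrays has equal and opposite values by construction. A difference of 1 on this scale is 2-fold. With 1 array per condition no difference within a format has a test, and each array enters 2 of the 4 comparisons, so the comparisons are not independent of each other. The spread of 45 bacterial control probe sets on the same arrays was used as a description of technical spread, chosen after values were seen. Their SD was 0.22 for L6-HGF minus L6-WT in sheets, 0.12 for the same in monolayers, 0.16 for sheet minus monolayer in L6-HGF and 0.18 for sheet minus monolayer in L6-WT, and 0 of them differed by more than 2-fold. Their medians were 0.05, 0.10, 0.17 and 0.23 in the same order.

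Sterol synthesis enzymes were highest on the L6-HGF monolayer array for 17 of 17 genes and lowest on the L6-WT sheet array for 13 of 17. Of all 14217 genes, 3320 were highest on the L6-HGF monolayer array and 2926 were lowest on the L6-WT sheet array. The median of the 17 genes was -0.08 in the L6-HGF sheet and -0.60 in the L6-WT sheet, and 0.89 in the L6-HGF monolayer and 0.08 in the L6-WT monolayer. L6-HGF sheets were above L6-WT sheets for 15 of 17 enzymes, with a median log2 difference of 0.36, and L6-HGF monolayers were above L6-WT monolayers for 17 of 17, with a median of 0.79. Over all genes the medians were -0.02 and 0.0016, and 46.2% and 50.4% of genes were above 0. Sheets were below monolayers for 17 of 17 enzymes in L6-HGF and for 15 of 17 in L6-WT, with medians of -0.97 and -0.60, where 45.9% and 45.6% of all genes were below 0.

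**Figure D1:**
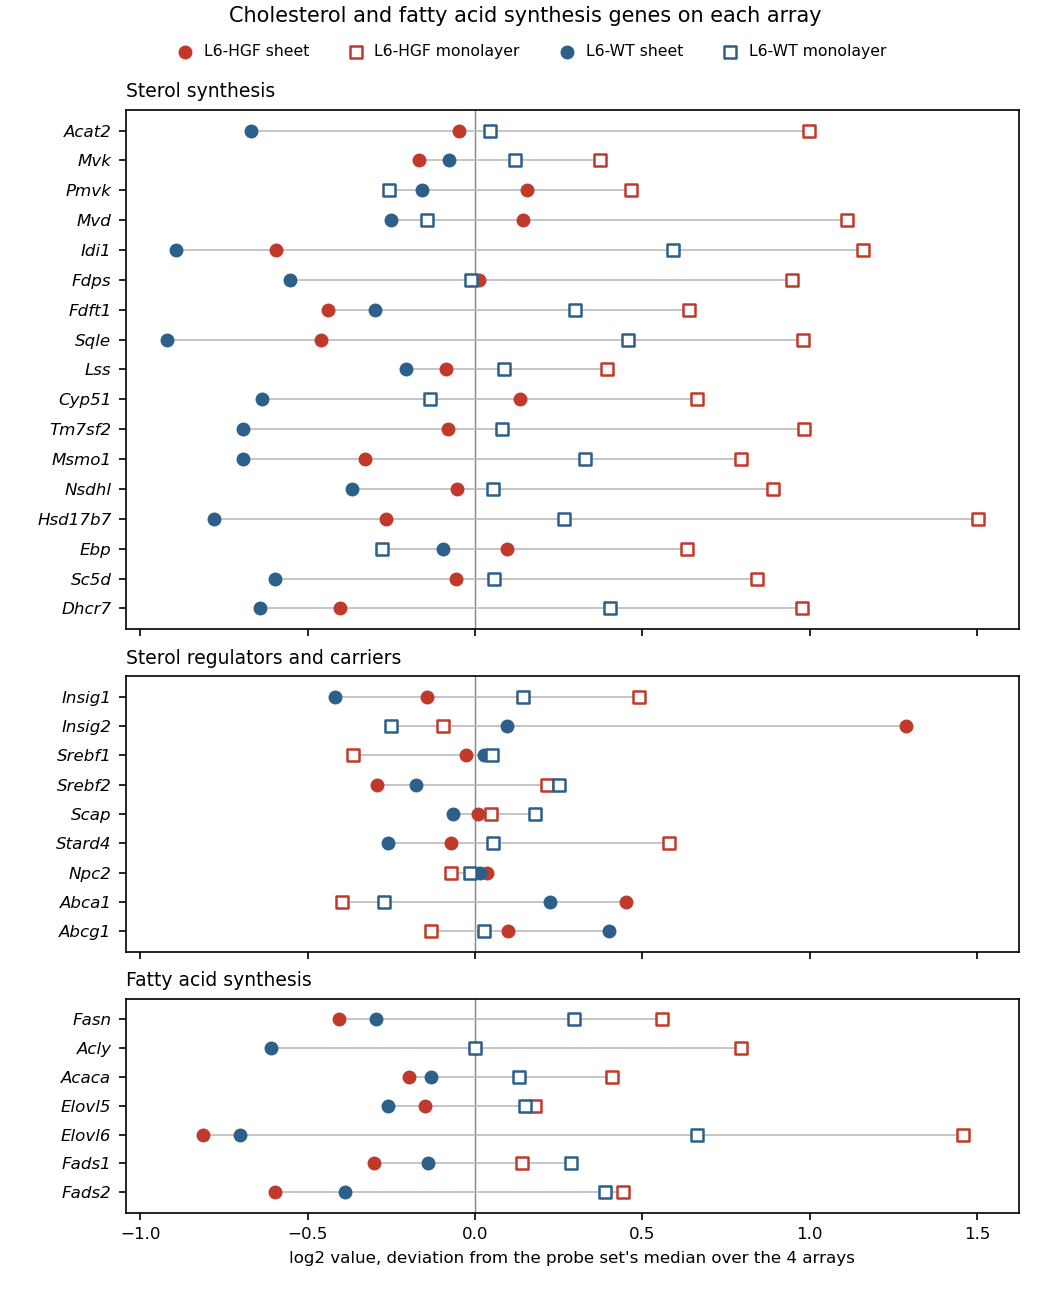
Log2 deviation of each gene from its probe set median over the 4 arrays, with red for L6-HGF, blue for L6-WT, filled circles for sheets and open squares for monolayers, 1 array each. The open red square is the rightmost mark for 17 of 17 sterol synthesis enzymes, and Insig2 stands apart with 1.29 in the L6-HGF sheet.

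The enzymes before squalene were led by Mvd, mevalonate diphosphate decarboxylase. Mvd had 0.14 in the L6-HGF sheet and -0.25 in the L6-WT sheet, and 1.11 in the L6-HGF monolayer and -0.14 in the L6-WT monolayer. Only the L6-HGF monolayer stood apart, and the other arrays lay within 0.39 of each other. Acat2, the cytosolic acetyl-CoA thiolase that starts the route, had -0.05 and -0.67 in the L6-HGF and L6-WT sheets and 1.0 and 0.05 in the L6-HGF and L6-WT monolayers. Fdps, which makes farnesyl diphosphate, had 0.01 and -0.55 in the L6-HGF and L6-WT sheets and 0.95 and -0.01 in the L6-HGF and L6-WT monolayers. For both genes the L6-HGF sheet lay beside the L6-WT monolayer, with the L6-HGF monolayer above them and the L6-WT sheet below them. Idi1, the isopentenyl diphosphate isomerase, was ordered mainly by format, with -0.59 and -0.89 in the L6-HGF and L6-WT sheets and 1.16 and 0.59 in the L6-HGF and L6-WT monolayers. The 2 probe sets of Idi1 gave L6-HGF minus L6-WT differences of 0.02 and 0.58 in sheets. Pmvk, phosphomevalonate kinase, was higher in L6-HGF by 0.31 in sheets and 0.72 in monolayers. Mvk, mevalonate kinase, differed by -0.09 and 0.26, with its 3 probe sets on both sides of 0 in each comparison. The 6 genes Acat2 to Fdps had medians of 0.35 for L6-HGF minus L6-WT in sheets, 0.84 in monolayers, -0.95 for sheet minus monolayer in L6-HGF and -0.37 in L6-WT.

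From squalene onwards the largest mean difference between the cells was 0.88, that of Hsd17b7, a keto-reductase that acts when methyl groups are removed from the sterol ring. Hsd17b7 had -0.27 in the L6-HGF sheet and -0.78 in the L6-WT sheet, and 1.5 in the L6-HGF monolayer and 0.27 in the L6-WT monolayer. Its 2 probe sets gave L6-HGF minus L6-WT differences of 0.41 to 0.62 in sheets and 1.08 to 1.39 in monolayers. Cyp51, lanosterol demethylase, had the most even difference between the cells among the sterol enzymes, with 0.13 and -0.64 in the L6-HGF and L6-WT sheets and 0.66 and -0.13 in the L6-HGF and L6-WT monolayers. Both L6-HGF arrays lay above both L6-WT arrays, by 0.77 in sheets and 0.80 in monolayers, while the 2 probe sets ranged from 0.70 to 0.84 and from 0.74 to 0.85. Sqle, squalene epoxidase and a rate-controlling step, was separated mainly by format. It had -0.46 and -0.92 in the L6-HGF and L6-WT sheets and 0.98 and 0.46 in the L6-HGF and L6-WT monolayers. Within each format it was also higher in L6-HGF, by 0.46 in sheets and 0.52 in monolayers.

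The other enzymes of this stretch fell between these patterns. Tm7sf2, a sterol reductase, was higher in L6-HGF by 0.61 in sheets and 0.90 in monolayers, and Sc5d, a sterol desaturase, by 0.54 and 0.79. Nsdhl, a decarboxylating sterol dehydrogenase, was higher by 0.31 and 0.84, and Ebp, a sterol isomerase, by 0.19 and 0.91. Ebp was also an exception to the format difference, with -0.10 in the L6-WT sheet and -0.28 in the L6-WT monolayer, as was Pmvk, with -0.16 and -0.26. Msmo1, a sterol methyl oxidase, and Dhcr7, the last step in one branch, had smaller L6-HGF differences of 0.36 and 0.47, and of 0.24 and 0.57, in sheets and monolayers. Both genes were more than 2-fold lower in sheets than in monolayers in each cell line, with log2 differences of -1.12 in L6-HGF and -1.02 in L6-WT for Msmo1, and of -1.38 and -1.05 for Dhcr7. Fdft1, squalene synthase, and Lss, which closes the ring, had the smallest mean cell differences here, with -0.14 and 0.34, and of 0.12 and 0.31. The 11 genes Fdft1 to Dhcr7 had medians of 0.36 for L6-HGF minus L6-WT in sheets, 0.79 in monolayers, -1.06 for sheet minus monolayer in L6-HGF and -0.65 in L6-WT.

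Against the bacterial controls, 9 of 17 sterol synthesis enzymes were above the highest control difference of 0.36 in sheets, and 14 of 17 were above the highest of 0.35 in monolayers, where Mvk, Fdft1 and Lss were not. Of all 33 genes, 11 and 17 were past these bounds, and of all genes 6.88% and 5.72% were. In L6-HGF 27 of 33 genes were below the lowest control difference between sheet and monolayer, -0.30, against 17.9% of all genes. In L6-WT 25 of 33 were below the lowest control difference of -0.12, against 29.7% of all genes, and the sterol enzymes among the exceptions were Pmvk, Mvd and Ebp.

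The promoters of the 4 members with the highest mean L6-HGF minus L6-WT difference and of the 2 with the most negative mean are shown so that the motifs in them can be read in place, among the members with a window. These means were 0.88 for Hsd17b7, 0.82 for Mvd, 0.79 for Acat2, 0.78 for Cyp51, -0.23 for Srebf1 and -0.15 for Fads1. The sequences are RefSeq windows on build GRCr8, with 250 bases before the start of the gene and 50 from it, 5′ to 3′ on the strand of the gene. Capitals mark matches, on either strand, of 4 motifs: TCACNCCAC (the sterol regulatory element bound by SREBPs), CCAAT (bound by NF-Y), CACGTG (the E-box) and GGGCGG (the GC box bound by Sp1). In these windows no match of one motif overlapped a match of another. Hsd17b7 lies at chr13:84722705-84723004 on the minus strand, Mvd at chr19:67414925-67415224 on the minus strand, Acat2 at chr1:50100590-50100889 on the plus strand, Cyp51 at chr4:30991443-30991742 on the plus strand, Srebf1 at chr10:45529115-45529414 on the minus strand and Fads1 at chr1:216252442-216252741 on the plus strand.
Hsd17b7: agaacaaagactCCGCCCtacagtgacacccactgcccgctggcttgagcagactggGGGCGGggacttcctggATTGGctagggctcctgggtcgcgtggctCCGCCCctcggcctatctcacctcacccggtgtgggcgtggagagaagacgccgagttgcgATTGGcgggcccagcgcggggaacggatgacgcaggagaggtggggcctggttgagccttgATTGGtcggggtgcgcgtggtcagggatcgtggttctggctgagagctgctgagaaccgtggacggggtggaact
Mvd: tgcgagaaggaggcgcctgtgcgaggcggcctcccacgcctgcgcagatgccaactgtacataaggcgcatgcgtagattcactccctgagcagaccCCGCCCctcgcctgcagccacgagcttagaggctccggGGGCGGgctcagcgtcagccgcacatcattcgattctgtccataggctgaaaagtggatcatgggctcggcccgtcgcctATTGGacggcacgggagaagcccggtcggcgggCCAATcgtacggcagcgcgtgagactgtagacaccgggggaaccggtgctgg
Acat2: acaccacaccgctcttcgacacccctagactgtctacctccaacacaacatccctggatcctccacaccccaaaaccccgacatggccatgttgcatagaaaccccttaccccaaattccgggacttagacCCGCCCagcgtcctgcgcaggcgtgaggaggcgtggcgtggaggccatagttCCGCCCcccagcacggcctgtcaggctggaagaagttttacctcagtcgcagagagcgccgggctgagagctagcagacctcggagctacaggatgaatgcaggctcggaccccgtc
Cyp51: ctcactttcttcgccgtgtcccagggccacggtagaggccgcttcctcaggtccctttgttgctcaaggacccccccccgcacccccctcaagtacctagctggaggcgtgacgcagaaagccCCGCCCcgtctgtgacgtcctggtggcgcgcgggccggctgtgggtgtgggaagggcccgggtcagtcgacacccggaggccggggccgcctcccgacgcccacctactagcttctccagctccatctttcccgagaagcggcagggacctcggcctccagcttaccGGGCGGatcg
Srebf1: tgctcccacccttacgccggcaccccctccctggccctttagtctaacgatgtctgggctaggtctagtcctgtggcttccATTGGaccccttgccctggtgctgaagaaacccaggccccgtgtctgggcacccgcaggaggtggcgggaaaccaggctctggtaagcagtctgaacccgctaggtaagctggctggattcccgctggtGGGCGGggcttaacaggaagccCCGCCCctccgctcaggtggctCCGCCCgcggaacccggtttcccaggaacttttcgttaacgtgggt
Fads1: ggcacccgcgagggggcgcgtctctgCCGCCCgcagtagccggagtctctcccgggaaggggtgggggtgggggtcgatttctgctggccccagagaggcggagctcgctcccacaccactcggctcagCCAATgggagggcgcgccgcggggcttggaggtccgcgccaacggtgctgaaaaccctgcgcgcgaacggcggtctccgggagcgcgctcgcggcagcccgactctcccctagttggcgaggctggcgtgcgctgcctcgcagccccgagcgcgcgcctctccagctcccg

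The Hsd17b7 window held 3 CCAAT matches, 176, 86 and 25 bases before the start, and 3 GC boxes. The Mvd window held 2 CCAAT matches and 2 GC boxes, while the Acat2 and Cyp51 windows held 2 GC boxes each and 0 CCAAT matches. The Srebf1 and Fads1 windows, from members with the opposite sign, held 1 CCAAT match each, with 3 and 1 GC boxes. A window was available for 25 of the 33 members, and CCAAT was in 19 of them (76%), against 37.3% of the 11733 windows of genes on the array and 37.7% of 27457 windows in all. Among sterol synthesis enzymes 11 of 14 windows held it (78.6%). The GC box was in 21 of 25 members (84%), against 57.5% of genes on the array, and the E-box in 5 of 25 (20%), against 8.92%. By list, the E-box was in 1 of 14 sterol synthesis enzymes (7.14%), 3 of 7 regulators and carriers and 1 of 4 fatty acid synthesis genes. TCACNCCAC was in 0 of 25 members, where 1.12% of genes on the array had it, and these letters being absent says nothing of SREBP itself. A match is a description of sequence and not a measured binding site. Pmvk, Fdft1, Sqle, Stard4, Abcg1, Fasn, Acaca and Elovl6 had no entry.

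The regulators and carriers had no shared direction between the cells. Their median was 0.07 for L6-HGF minus L6-WT in sheets and -0.06 in monolayers, with 6 and 3 of 9 genes above 0, and 0.11 for sheet minus monolayer in L6-HGF and -0.03 in L6-WT. Insig2, which helps to hold SREBPs in the endoplasmic reticulum, stood apart with 1.29 in the L6-HGF sheet and 0.10 in the L6-WT sheet, and -0.10 in the L6-HGF monolayer and -0.25 in the L6-WT monolayer. The L6-HGF sheet was thus 2.29-fold above the L6-WT sheet and 2.61-fold above the L6-HGF monolayer. Both of its probe sets gave this, with 1.19 to 1.2 and 1.35 to 1.42. Its paralogue Insig1, itself a target of SREBPs, followed the enzymes, with -0.14 and -0.42 in the L6-HGF and L6-WT sheets and 0.49 and 0.14 in the L6-HGF and L6-WT monolayers. Stard4, a cytosolic sterol carrier, had the same order, with -0.07 and -0.26 in the sheets and 0.58 and 0.05 in the monolayers. Its 3 probe sets ranged from -0.05 to 0.31 for L6-HGF minus L6-WT in sheets, and the lowest did not have this order.

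Srebf1 and Srebf2, the genes of the SREBPs themselves, did not follow the enzymes between the cells. Srebf2 had -0.29 and -0.17 in the L6-HGF and L6-WT sheets and 0.22 and 0.25 in the L6-HGF and L6-WT monolayers. For sheet minus monolayer, the first of its 2 probe sets gave -0.89 in L6-HGF and -0.84 in L6-WT. The second gave -0.12 and -0.01, both within 2 SDs of the controls, so the format difference came from the first. Srebf1 was lowest in the L6-HGF monolayer, at -0.36, while the other arrays lay between -0.03 and 0.05. L6-HGF minus L6-WT for Srebf1 was -0.05 in sheets and -0.42 in monolayers, with the monolayer value past 2 SDs of the controls and given by both probe sets, at -0.45 and -0.39. Scap, the escort of SREBPs, differed by 0.07 in sheets and -0.13 in monolayers between L6-HGF and L6-WT, and Npc2, which moves cholesterol out of lysosomes, by 0.02 and -0.06. These gene means lay within 2 SDs of the controls for each of Scap and Npc2. The 2 probe sets of Scap disagreed in monolayers, at 0.19 and -0.45, and the second was past 2 SDs of the controls. The export carriers ran opposite to the enzymes by format. Abca1 had 0.45 and 0.22 in the L6-HGF and L6-WT sheets and -0.40 and -0.27 in the L6-HGF and L6-WT monolayers, and its 4 probe sets were higher in sheets in both cell lines. Abcg1 was higher in sheets by 0.23 in L6-HGF and 0.37 in L6-WT, but its 3 probe sets ranged from -0.11 to 0.67 in L6-WT.

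Fatty acid synthesis genes differed by format more than by cells. Sheets were below monolayers for 7 of 7 genes in both cell lines, with medians of -0.79 in L6-HGF and -0.59 in L6-WT, while L6-HGF minus L6-WT had a median of -0.11 in sheets, with 2 of 7 above 0, and 0.26 in monolayers, with 6 of 7 above 0. Elovl6, an elongase of saturated fatty acids, had the largest mean format difference of the 33 genes, with -0.81 and -0.70 in the L6-HGF and L6-WT sheets and 1.46 and 0.66 in the L6-HGF and L6-WT monolayers. The L6-HGF sheet was 4.82-fold below the L6-HGF monolayer and the L6-WT sheet 2.57-fold below the L6-WT monolayer. Elovl6 was 0.80 higher in L6-HGF monolayers, but differed by -0.11 in sheets, where its 2 probe sets gave -0.30 and 0.08. Acly, which supplies cytosolic acetyl-CoA to both pathways, resembled the sterol enzymes more than its own list, with 0.0012 and -0.61 in the L6-HGF and L6-WT sheets and 0.80 and -0.0012 in the L6-HGF and L6-WT monolayers.

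The other 5 genes showed the format difference, with cell differences of at most 0.28 in size. Sheet minus monolayer was -0.96 in L6-HGF and -0.59 in L6-WT for Fasn, fatty acid synthase, and -0.61 and -0.26 for Acaca, acetyl-CoA carboxylase. The same differences were -1.04 and -0.78 for Fads2, a desaturase, and -0.44 and -0.43 for Fads1, a second desaturase of the same route. Elovl5, an elongase of polyunsaturated fatty acids, had -0.33 and -0.41. The 2 probe sets of Acaca disagreed in L6-WT, with sheet minus monolayer differences of -0.55 and 0.02. Between L6-HGF and L6-WT these 5 genes ranged from -0.21 for Fads2 to 0.11 for Elovl5 in sheets, and from -0.15 for Fads1 to 0.28 for Acaca in monolayers. In monolayers the values of Acaca and of Fasn, 0.26, were past 2 SDs of the controls.

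**Figure D2:**
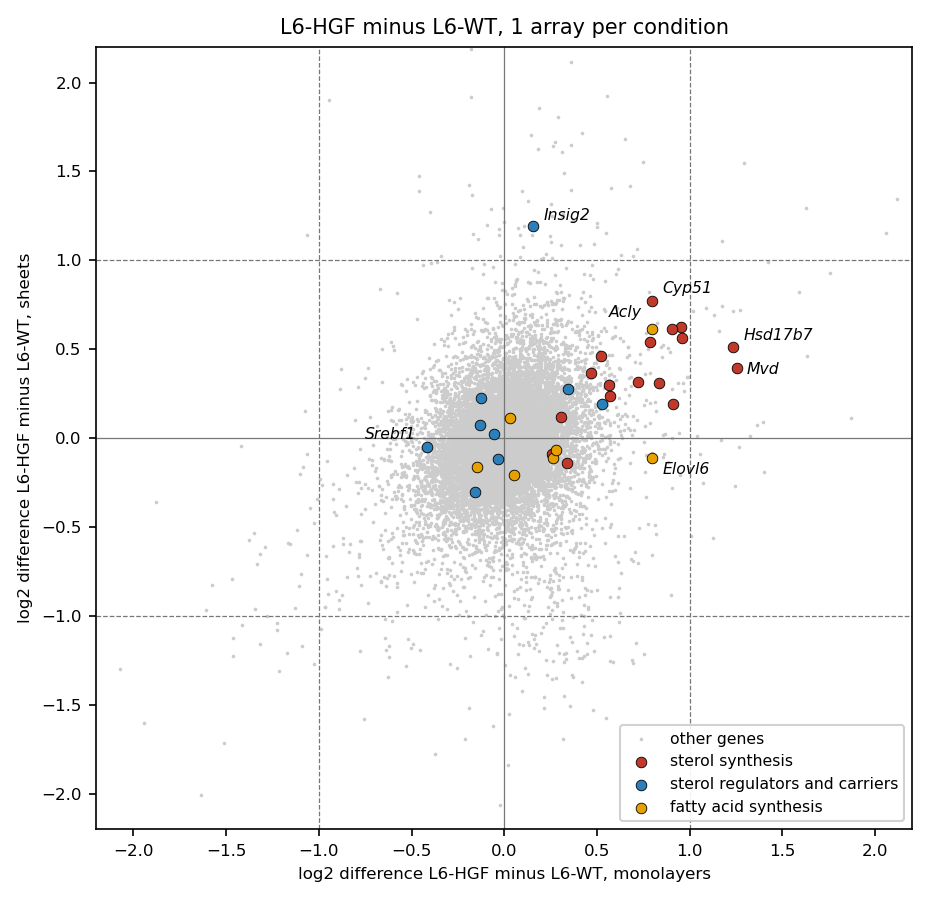
Log2 difference L6-HGF minus L6-WT for each gene in sheets (vertical) against monolayers (horizontal), with 1 array for each condition. Dashed lines mark 2-fold and 7 genes are outside the axes. Sterol synthesis enzymes (red) lie to the right of 0, fatty acid synthesis genes (orange) within 0.28 of 0 except Acly and Elovl6, and Insig2 is the 1 member above the upper line.

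Few members passed 2-fold between the cells. Insig2 was the 1 member more than 2-fold higher in L6-HGF sheets, against 0.492% of all genes, and 0 members were more than 2-fold lower, against 0.95%. In monolayers 2 members were more than 2-fold higher, Mvd and Hsd17b7, against 0.225% of all genes, and 0 were lower, against 0.309%. Both L6-HGF arrays lay above both L6-WT arrays for 6 of 33 members (Pmvk, Mvd, Fdps, Cyp51, Ebp and Acly), against 12.9% of all genes, and for 1 of 33, Srebf1, they lay below, against 15.2%. A contrast of 2 against 2 arrays cannot give an exact two-sided permutation p below 0.33. The L6-HGF monolayer was highest and the L6-WT sheet lowest for 17 of 33 members and for 13 of 17 sterol enzymes, against 9.7% of all genes.

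With its sign kept, the L6-HGF minus L6-WT difference was lower in sheets than in monolayers for 27 of 33 members, against 52.4% of all genes, and for 17 of 17 sterol enzymes. For 4 of the 27 (Srebf2, Abcg1, Fads1 and Fads2) the size of the difference was larger in sheets. The sheet difference minus the monolayer difference had a median of -0.33 over the sterol enzymes, -0.26 over the fatty acid genes and 0.08 over the regulators and carriers, with an SD of 0.19 over the controls. Its most negative values were -0.91 for Elovl6, -0.86 for Mvd, and -0.72 for both Hsd17b7 and Ebp, and Insig2 had the highest, 1.04. Cyp51 and Sqle had -0.03 and -0.06, so their differences were nearly equal in both formats. Each of these values contains the L6-HGF monolayer array, the highest of the 4 for each sterol enzyme, and a difference between formats has no test with 4 arrays.

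**Figure D3:**
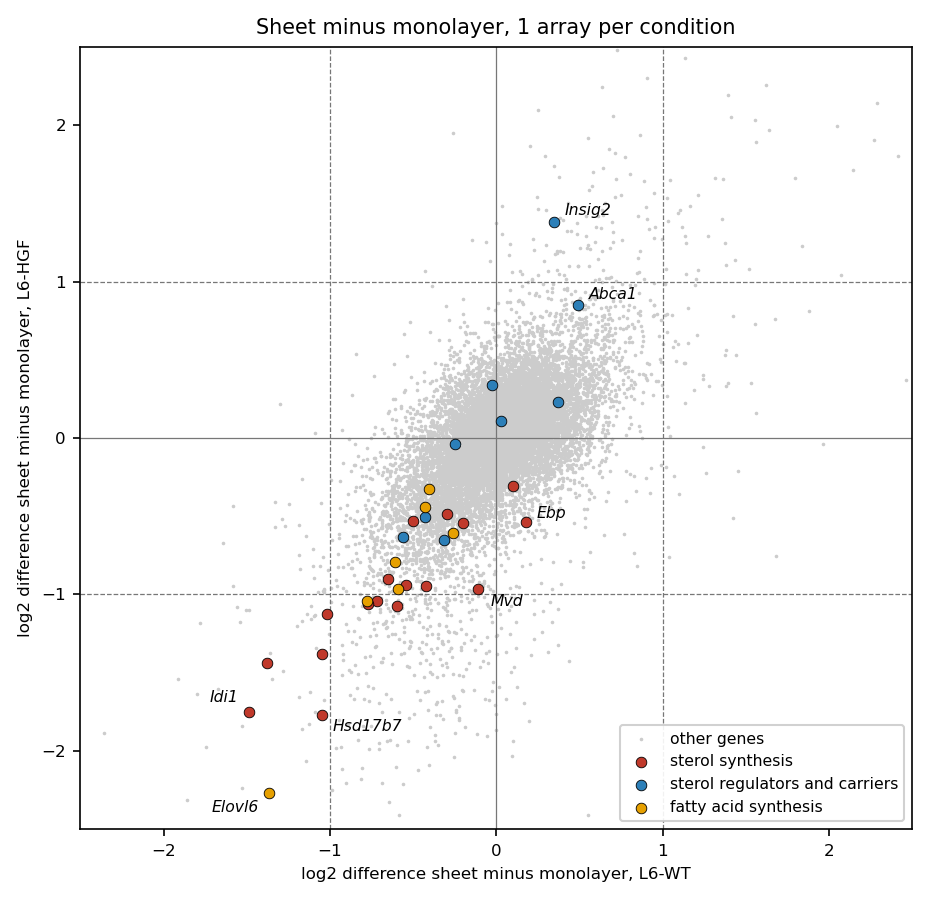
Log2 difference sheet minus monolayer for each gene in L6-HGF (vertical) against L6-WT (horizontal), with 1 array for each condition. Dashed lines mark 2-fold and 27 genes are outside the axes. Sterol and fatty acid synthesis genes lie at the lower left except Pmvk and Ebp, with Elovl6 lowest at -2.27 in L6-HGF, while Insig2 and Abca1 lie at the upper right.

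By format, the L6-HGF sheet was more than 2-fold below the L6-HGF monolayer for 10 of 33 members, against 2.57% of all genes. These were Acat2, Idi1, Fdft1, Sqle, Tm7sf2, Msmo1, Hsd17b7, Dhcr7, Elovl6 and Fads2. Insig2 was the 1 member more than 2-fold higher, against 1.17%. In L6-WT 6 members were more than 2-fold lower in the sheet, Idi1, Sqle, Msmo1, Hsd17b7, Dhcr7 and Elovl6, against 0.492% of all genes, and 0 were higher, against 0.717%. All 6 were also among the 10 of L6-HGF. Idi1 was 3.37-fold lower in the L6-HGF sheet and 2.80-fold lower in the L6-WT sheet, and Sqle was 2.71-fold and 2.60-fold lower. Both sheet arrays lay below both monolayer arrays for 22 of 33 members, 12 of 17 sterol enzymes and 6 of 7 fatty acid genes, against 24.3% of all genes. Both sheet arrays lay above both monolayer arrays for 4 of 33, Insig2, Npc2, Abca1 and Abcg1, against 30.1% of all genes.

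A limma model over all genes, with terms for cells and format and 1 residual degree of freedom, called 0 of 33 members for the L6-HGF effect at an adjusted p under 0.05, and 0% of all genes. The smallest adjusted p of a member was 0.492, for Cyp51, with a mean difference of 0.78 and a standard error of 0.10 (limma, Benjamini-Hochberg). At an unadjusted p under 0.05, 16 of 33 members were higher and 0 lower in L6-HGF, against 4.23% of all genes higher and 4.99% lower. For the sheet effect limma called 0 members and 2 of 14217 genes (0.0141%). Idi1 had the smallest adjusted p of a member, 0.113, with a mean difference of -1.62 and a standard error of 0.12. At an unadjusted p under 0.05, 24 of 33 members were lower and 3 higher in sheets, against 13.3% of all genes lower and 11.1% higher. The residual of this model is the difference of the cell effect between formats, so any true difference is held in it together with noise. Limma also pooled the variance of each gene with that of all genes, with 3.03 prior degrees of freedom. With 1 array per condition, no p or standard error here measures the spread between replicate cultures.

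Genes of the same pathways outside the list were taken from 7 further lists, of which 76 of 90 genes were found. Their median for L6-HGF minus L6-WT was 0.04 in sheets and 0.05 in monolayers. Above 0 were 40 and 44 of the 76, beside 46.2% and 50.4% of all genes. In either format 0 of the 76 were past 2-fold. Of all genes, 0.492% were more than 2-fold higher and 0.95% lower in sheets, and 0.225% and 0.309% in monolayers. Scd, a stearoyl-CoA desaturase, followed the members, with -0.40 and -0.68 in the L6-HGF and L6-WT sheets and 0.95 and 0.40 in the L6-HGF and L6-WT monolayers. Acss2, which makes cytosolic acetyl-CoA from acetate, was higher in L6-HGF by 0.51 in sheets and 0.85 in monolayers. Scd2, a second desaturase, differed by 0.06 and 0.29.

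Sheet against monolayer, 3 of the 76 genes were lower by more than 2-fold in L6-HGF sheets (Scarb1, Scd and Aacs) and 4 in L6-WT sheets (Scarb1, Scd, Me1 and Aacs), beside 2.57% and 0.492% of all genes. In L6-HGF 1 of the 76 was more than 2-fold higher in the sheet, Vldlr, a lipoprotein receptor, at 4.17-fold, beside 1.17% of all genes, and in L6-WT 0 were. Of these, Vldlr, Scarb1, a receptor for high density lipoprotein, Me1, a source of NADPH, and Aacs, acetoacetyl-CoA synthetase, are named because of their values. Aacs had -0.56 and -0.59 in the L6-HGF and L6-WT sheets and 1.5 and 0.56 in the L6-HGF and L6-WT monolayers. Fatty acid oxidation, the opposing pathway, had medians of 0.05 and 0.02 for L6-HGF minus L6-WT in sheets and monolayers, and 0.11 and 0.23 for sheet minus monolayer in L6-HGF and L6-WT.

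**Figure D4:**
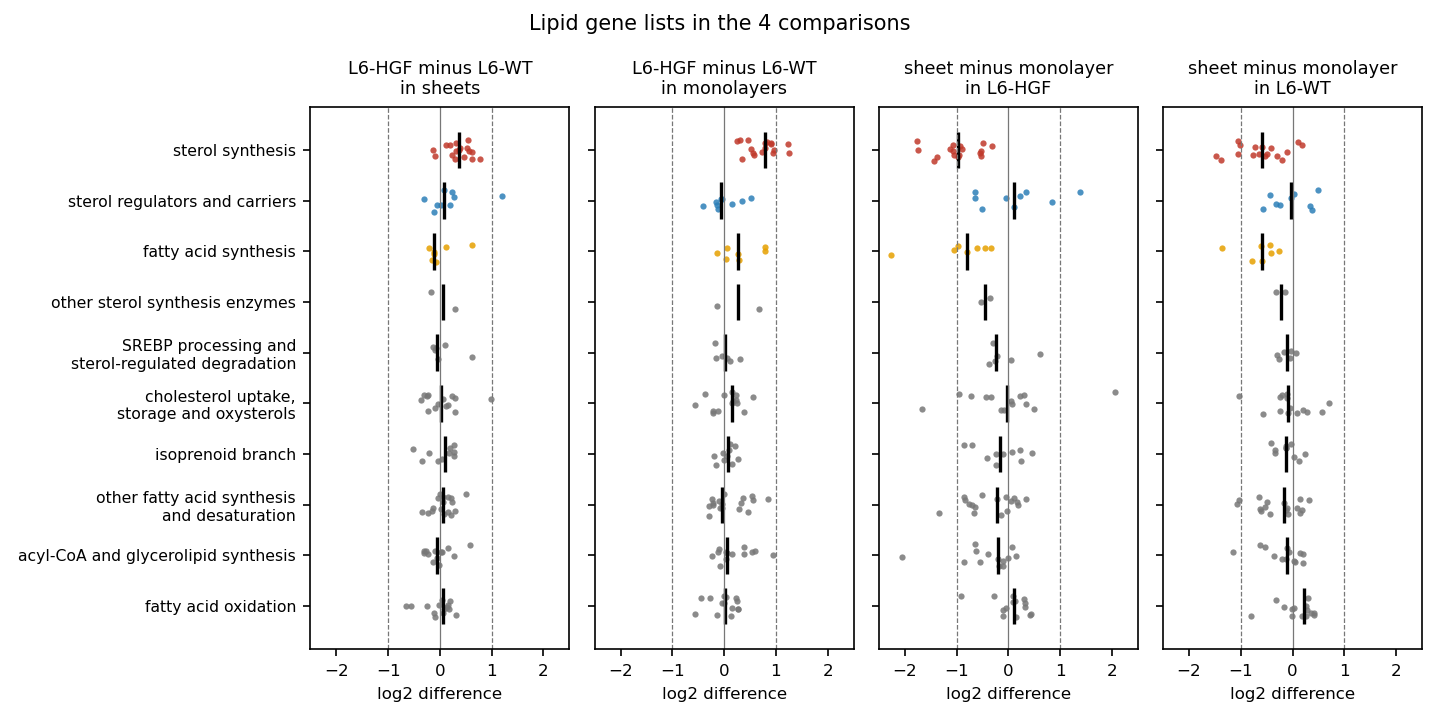
Log2 differences of the genes of 10 lipid lists (rows) in the 4 comparisons (panels), with a point per gene, a black bar at each list's median and dashed lines at 2-fold. The sterol synthesis bar is at 0.36, 0.79, -0.97 and -0.60 from the left panel to the right, and the fatty acid oxidation bar at 0.05, 0.02, 0.11 and 0.23.

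Cell type markers differed between the cells too. Of 11 myoblast markers 9 were found, with medians of -0.08 for L6-HGF minus L6-WT in sheets and -0.18 in monolayers, and of -0.23 for sheet minus monolayer in L6-HGF and -0.28 in L6-WT. L6-HGF minus L6-WT ranged from -1.0 in sheets and -1.28 in monolayers for Mymk, the fusion factor myomaker, to 0.76 and 0.43 for Des, the muscle filament desmin. By format Itga7, a muscle integrin, had the lowest values of the list, -1.13 in L6-HGF and -1.14 in L6-WT. For L6-HGF minus L6-WT, all 10 fibroblast markers were below 0 in sheets, with a median of -0.65. In monolayers 8 of 10 were below 0, with a median of -0.22. Of all 14217 genes, 7630 and 7019 were below 0 in sheets and monolayers. In each format 2 of the 10 were more than 2-fold lower, beside 0.95% of all genes in sheets and 0.309% in monolayers. The fibroblast list ranged from -0.78 to 1.2 in the L6-HGF sheet and from -0.10 to 2.21 in the L6-WT sheet, and from -2.36 to 0.10 in the L6-HGF monolayer and from -1.22 to 0.35 in the L6-WT monolayer. In sheets against monolayers 4 of the 10 were more than 2-fold higher in each cell line, beside 1.17% of all genes in L6-HGF and 0.717% in L6-WT, while 6 of 10 were below 0 in L6-HGF and 5 of 10 in L6-WT, with medians of -0.31 and -0.01. Medians of the adipocyte, endothelial and macrophage lists lay between -0.15 and 0.11 for L6-HGF minus L6-WT in both formats. The adipocyte list was not uniform, from -1.17 for Cfd to 0.37 in sheets and from -0.62 for Cfd to 0.35 in monolayers. Its sheet minus monolayer medians were 0.07 in L6-HGF and 0.29 in L6-WT. Above 0 were 4 and 7 of its 8 genes, beside 53.9% and 54.2% of all genes. Since the values are centred, none of these markers could be shown to be absent, and fewer cells of a type cannot be told apart from less RNA per cell. The part of these markers in the lipid gene differences was not tested.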

How the data were processed

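Total RNA of each culture was hybridised to a rat expression array of Affymetrix. The authors processed the arrays with RMA, which the submitters' processing notes name, and normalized to the median. The version of RMA and the build behind the array were not given in the sources used here. Deposited values are log2 deviations, since the median of each probe set over the 4 arrays was 0 within 5e-07.

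From the deposited log2 values 57 control probe sets were left out of 31099. A single symbol was listed for 20826 of the others, several for 436 and none for 9780, and 20758 were matched by Entrez identifier to RefSeq, which changed 0 symbols. The 14217 genes are means of their probe sets, and 4525 had more than 1. Limma 3.58.1 (R 4.3.3) was fitted over all genes with terms for cells and format, offset variances of 0, was tested on simulated data, and gave p-values adjusted by the Benjamini-Hochberg method. Tables and motif searches were made in Python 3.11.15 with pandas 2.3.3. Where a symbol had several promoter windows, the window listed first was used. The number of arrays limits precision.

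All members are described. Of other pathway genes, a short list set by name and any gene past 2-fold between the cells were to be named. From that list Scd, Scd2 and Acss2 are given, and its other genes are not reported here. Scarb1, Me1, Aacs and Vldlr were added after their values were seen. The members and lists were chosen with earlier results of these data known. Alternatives were the median over probe sets, leaving out probe sets that may cross-hybridise, quantile normalization of the centred values, subtraction of array medians, a 1.5-fold threshold, limma with 1 term or on probe sets, and motifs before the start only.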

Additional observations from a re-analysis of the deposited data

Results flagged for a closer look

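Vldlr, the very low density lipoprotein receptor, was the 1 lipid gene outside the member list whose difference between the cells had opposite signs in the formats, each past 2 SDs of the bacterial controls. Its mean over 4 probe sets was 1.34 in the L6-HGF sheet and 0.35 in the L6-WT sheet, and -0.72 in the L6-HGF monolayer and -0.35 in the L6-WT monolayer. L6-HGF minus L6-WT was 0.99 in sheets and -0.36 in monolayers. With 1 array per condition the difference between formats was not tested.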

How the results depend on the processing

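The medians of the 3 member lists kept their sign under every alternative run in each of the 4 comparisons. Medians of the difference between formats were rerun with quantile normalization only, and kept their sign too (15 medians in all, 0 with another sign). Of 132 differences of single members, 1 changed sign, that of Elovl6 between L6-HGF and L6-WT sheets, which was 0.18 with quantile normalization of the centred values, and 0 of the 20 past 2-fold did. With quantile normalization 0 members were past 2-fold in L6-HGF sheets, since Insig2 had 0.88, and 5 were in L6-HGF monolayers (Acat2, Mvd, Fdps, Hsd17b7 and Elovl6). The shares of all genes past 2-fold were not counted under quantile normalization, so these member counts have no background beside them. At 1.5-fold, 5 members were higher in L6-HGF sheets (2.2% of all genes) and 12 in L6-HGF monolayers (1.22%), while 2 were higher (4.02%) and 19 lower (7.28%) in the L6-HGF sheet than in the L6-HGF monolayer, and 13 were lower in the L6-WT sheet than in the L6-WT monolayer (3.76%). Limma called 0 members for the cell effect without a term for format, on probe sets and after quantile normalization, and 0 for the sheet effect without a term for cells and on probe sets. Of all 14217 genes, it called 2 for the cell effect after quantile normalization and 0 without a term for format. On probe sets it called 0 of 31042 for either effect, and without a term for cells 0 of 14217 genes for the sheet effect. No paired analysis was possible because the labels carry no replicate numbers to pair by, although the term for format in the limma model compares the cells within each format. With 1 array per condition no replicate could be left out.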
